A study of Mus musculus with 12 samples.

Results

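The 10 genes described here encode RNA-binding proteins that select exons in pre-mRNA and whose levels differ between cell identities. They are the epithelial splicing regulatory proteins Esrp1 and Esrp2, the muscleblind-like proteins Mbnl1, Mbnl2 and Mbnl3, Rbfox2, the polypyrimidine tract binding proteins Ptbp1 and Ptbp2, and the CUG-binding proteins Celf1 and Celf2. They were chosen by symbol, with earlier results of these data known, and all 10 were found among the 23420 genes of the count files. Their RNA levels were followed over 4 groups of mouse cells with 3 RNA-seq libraries each. MEF are mouse embryonic fibroblasts, Stage1 and Stage2 are cells taken at day 6 of reprogramming and 4 days after that, and iPSC are established induced pluripotent stem cells. All 12 libraries carry the strain label Mixed (C57BL/6 x 129). According to the series text every group except MEF was sorted as Oct4-GFP+, meaning cells in which a fluorescent Pou5f1 (Oct4) reporter was on, so the Stage1 and Stage2 libraries describe the sorted cells and not the whole culture. The sources used here do not name the reprogramming factors.

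Esrp1 and Esrp2 are known as epithelial proteins that favour the epithelial forms of transcripts such as those of Fgfr2, Cd44 and Ctnnd1, and they are lost in mesenchymal cells. Mbnl proteins favour exon choices of differentiated tissues and hold back exon choices typical of embryonic stem cells, and on many exons Celf proteins act in the opposite direction. Ptbp1 represses neuronal exons and also lowers its paralog Ptbp2 by making part of the Ptbp2 transcripts unstable, while Rbfox2 enhances or represses exons depending on which side of the exon it binds. The counts are sums per gene and show how much RNA of each regulator was present, not which exons were used. In sorted or cultured bulk samples, fewer cells with a transcript and less transcript per cell cannot be told apart.

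In all 12 libraries the title and the stage among the characteristics named different groups, and the marker label (Unsorted or Oct4-GFP+) moved with the characteristics. The groups here follow the titles. Summed CPM (counts per 1e+06 gene counts) of 8 fibroblast markers lay between 13590 and 19210 in MEF libraries, between 13.1 and 20.5 at Stage1, between 101 and 156 at Stage2 and between 74.7 and 76.6 in iPSC. Summed CPM of 8 pluripotency markers lay between 4.00 and 5.06 in MEF and between 2546 and 7418 in the other 9 libraries. Of 8 epithelial markers the sum was 6.27 to 9.08 CPM in MEF and 645 to 848 CPM elsewhere. The lists separate MEF and leave the names of the later groups resting on the titles. The characteristics give another stage to the libraries titled MEF, which held the fibroblast markers. Since all 6 pairs of groups are given, naming by characteristics would change the names of the comparisons and none of their values. Statements on the order of the groups depend on the naming. Gene counts per library ranged from 8916223 to 19011944. The sources used here do not say if the 3 libraries of a group are separate cultures or animals, and each p-value refers to the spread among the libraries.

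RefSeq promoter windows of build GRCm38.p6, from 250 bases before to 50 bases after a transcript start, were found for 7 of the 10 genes and covered 12 starts. Windows of Esrp1, Esrp2 and Rbfox2 were not analysed here. Of the 12 windows 4 are printed, from a pair of genes with higher and a pair with lower RNA in every later group than in MEF. They were picked after their sequence was seen to show a contrast in the dinucleotide CG, which is in capitals, and no link between CG content and direction of change was tested. All 4 are read on the strand of the gene. The windows lie at chr2:90940147-90940446 on the plus strand for Celf1, chr3:119783339-119783638 on the minus strand for Ptbp2, chr3:60472580-60472879 on the plus strand for the upstream start of Mbnl1 and chr14:120275419-120275718 on the plus strand for Mbnl2.
Celf1: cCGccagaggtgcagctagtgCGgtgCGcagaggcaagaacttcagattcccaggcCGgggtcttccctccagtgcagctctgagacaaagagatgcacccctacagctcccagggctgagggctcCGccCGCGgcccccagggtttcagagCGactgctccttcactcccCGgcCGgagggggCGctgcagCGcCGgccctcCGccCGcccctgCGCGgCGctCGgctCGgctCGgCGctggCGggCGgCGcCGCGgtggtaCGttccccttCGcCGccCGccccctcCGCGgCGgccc
Ptbp2: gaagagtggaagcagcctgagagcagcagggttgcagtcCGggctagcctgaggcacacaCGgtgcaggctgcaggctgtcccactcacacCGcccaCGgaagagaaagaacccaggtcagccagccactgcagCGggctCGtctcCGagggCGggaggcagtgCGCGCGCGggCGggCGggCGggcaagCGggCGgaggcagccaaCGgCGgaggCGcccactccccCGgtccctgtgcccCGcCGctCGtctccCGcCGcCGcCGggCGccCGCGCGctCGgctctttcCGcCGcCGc
Mbnl1: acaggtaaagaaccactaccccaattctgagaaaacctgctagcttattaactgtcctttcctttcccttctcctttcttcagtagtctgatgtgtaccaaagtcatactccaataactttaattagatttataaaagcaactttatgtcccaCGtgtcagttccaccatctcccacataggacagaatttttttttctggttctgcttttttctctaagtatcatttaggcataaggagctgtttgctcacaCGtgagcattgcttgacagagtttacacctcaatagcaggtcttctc
Mbnl2: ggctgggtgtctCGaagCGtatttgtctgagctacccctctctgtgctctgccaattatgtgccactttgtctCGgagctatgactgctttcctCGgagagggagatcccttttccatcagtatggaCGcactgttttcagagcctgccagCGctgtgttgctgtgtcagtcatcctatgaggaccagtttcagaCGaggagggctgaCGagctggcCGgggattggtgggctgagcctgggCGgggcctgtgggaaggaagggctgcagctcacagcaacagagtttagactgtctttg
The windows hold 34 CG in Celf1, 36 in Ptbp2, 2 in the upstream Mbnl1 window and 10 in Mbnl2, beside a median of 7 over the 32851 promoters of the same length in the table. The Mbnl2 window is itself above that median, and 56.5% of promoters have fewer CG. Mbnl1 has a second start, at chr3:60500929-60501228, with 41 CG. Celf2, which also had less RNA in every later group than in MEF, has a start at chr2:6871986-6872285 with 48 CG, the highest count of the 12, beside other starts with 4 to 8, so the printed contrast is not shared by every window. Neither CACCTG nor its reverse complement CAGGTG, the E-box letters known as a binding site of Zeb and Snail repressors, occurs in any of these 12 windows, which cover neither Esrp gene, and 20.2% of all promoters hold one of them. The wider E-box CANNTG occurs in 7 of the 12 windows and in 72.3% of all promoters. Among the 7 are Celf2 windows at chr2:7395951-7396250 and chr2:7396149-7396448, which overlap. All CANNTG matches of these windows lie in the shared stretch, so the same matches count for both. These are letter matches in short windows.

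The sharpest split between MEF and the other groups among the 10 was in Esrp1. Esrp1 had 53.1, 43.1 and 44.9 CPM in the Stage1 libraries, 58.0, 49.4 and 48.6 CPM at Stage2, 9.60, 17.6 and 20.2 CPM in iPSC and no count in any MEF library. All 9 later libraries therefore lay above all 3 MEF libraries, and all iPSC libraries lay below all Stage1 and Stage2 libraries. Against a floor of 3 counts over the 46098942 MEF gene counts, which is 0.0651 CPM, pooled Esrp1 was at least 728-fold higher at Stage1, at least 789-fold higher at Stage2 and at least 244-fold higher in iPSC than in MEF. Such floors cover counting error only. Between 13817 and 14586 genes had a count in the MEF libraries, and between 18863 and 20548 in the others. Reads outside genes made up 9.21% in MEF and 38.8% to 49.9% in the other groups. The part of these differences in the comparisons with MEF was not tested. Esrp1 lies on chromosome 4 (11331933 to 11386783, minus strand, GRCm38), and 127 bases of its exons overlap a noncoding RNA on the other strand.

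Between iPSC and Stage2 Esrp1 fell, with a log2 fold change of -1.62 ± 0.23 (SE) and an adjusted p of 0.000387 in edgeR's quasi-likelihood test. Between iPSC and Stage1 the change was -1.68 ± 0.23 (adjusted p = 3.69e-05). Stage2 and Stage1 did not differ beyond their spread, at -0.06 with a 95% interval of -0.52 to 0.41, and the sign of that small value depends on the scaling. Here and below, log2 fold changes and intervals come from 1 edgeR fit of all 12 libraries, scaled by TMM, and p-values are Benjamini-Hochberg adjusted over the 14770 genes tested. A gene is called when its adjusted p is below 0.05. TMM factors were 0.824 to 0.896 in MEF and 1.11 to 1.15 at Stage2, so a fitted change can differ from the ratio of the CPM values printed beside it.

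Esrp2, the paralog that acts on many of the same exons, stayed low throughout. Its levels were 3.03, 3.80 and 4.05 CPM in MEF, 4.38, 5.74 and 3.83 CPM at Stage1, 2.27, 3.58 and 3.62 CPM at Stage2 and 4.89, 3.62 and 2.73 CPM in iPSC. The groups overlapped, except that all Stage1 libraries lay above all Stage2 libraries, and edgeR's test on all 12 libraries called Esrp2 in 0 of the 6 comparisons. The furthest from no change was Stage2 against Stage1, at -0.75 (95% interval -1.45 to -0.06, adjusted p = 0.0787), the 1 comparison with an unadjusted p under 0.05. It was called in 1 of the 8 other settings, the fit of only those 2 groups (adjusted p = 0.0497). Esrp1 counts were 10.1 times those of Esrp2 at Stage1, 16.6 times at Stage2 and 4.09 times in iPSC, as geometric means of 3 libraries. Esrp2 lies on chromosome 8 (106130319 to 106136974, minus strand). Its exons share 219 bases with Nfatc3 on the other strand, and the sources used here do not say how strand was treated in counting, so counts as low as these could hold reads of either gene.

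**Figure D1:**
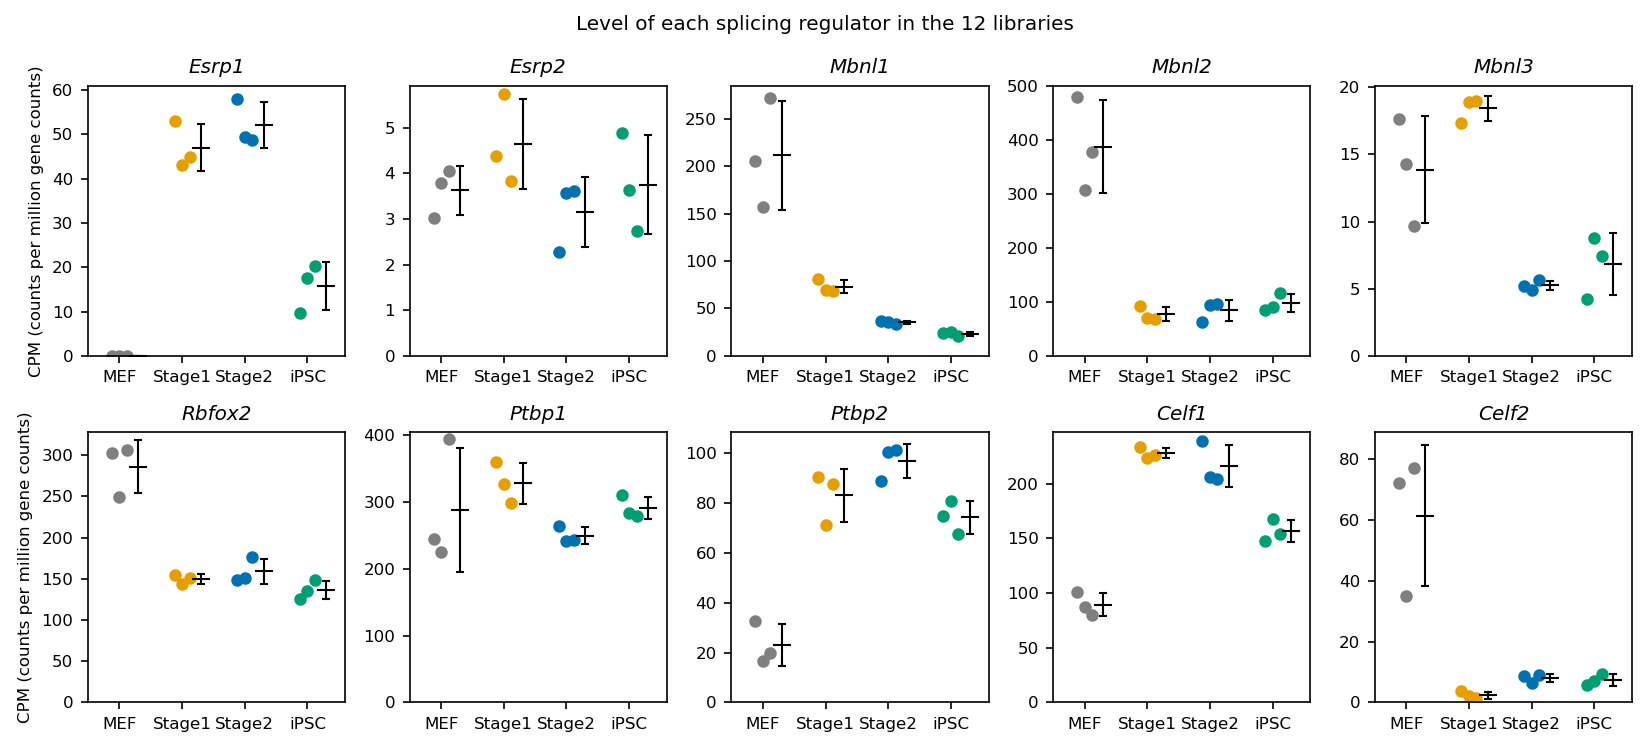
CPM of each of the 10 regulators (vertical axis from 0, scaled per gene) in the 3 libraries of MEF, Stage1, Stage2 and iPSC, one point a library, with mean and SD beside them. Esrp1 is at 0 in MEF and between 43.1 and 58.0 CPM at Stage1 and Stage2, while Mbnl1, Mbnl2, Rbfox2 and Celf2 are highest in MEF.

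The Mbnl family fell, each member on its own schedule. Mbnl1, the widely expressed member that is sequestered by CUG repeats in myotonic dystrophy, had 205, 157 and 272 CPM in MEF, 81.1, 69.1 and 68.6 CPM at Stage1, 37.3, 35.3 and 33.7 CPM at Stage2 and 23.7, 24.8 and 21.3 CPM in iPSC. No library of any group overlapped the next, and the level was lower in each successive group. Mbnl1 lies on chromosome 3 (60472830 to 60629750, plus strand). The log2 fold change was -1.71 ± 0.16 for Stage1 against MEF (adjusted p = 2.55e-08), -1.25 ± 0.16 for Stage2 against Stage1 (adjusted p = 1.54e-05) and -0.50 ± 0.17 for iPSC against Stage2 (adjusted p = 0.0440). The last of these steps is at the edge of the call, since it was lost in 9 of 12 fits that left out a library, namely any of Stage1, Stage2 or iPSC, with adjusted p up to 0.162, and its size stayed between -0.57 and -0.43. From end to end, iPSC against MEF, Mbnl1 fell by 3.46 ± 0.18 on the log2 scale (adjusted p = 6.28e-12).

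Mbnl2, the member most linked to brain splicing, fell in a single step. It lies on chromosome 14 (120275669 to 120431697, plus strand). Its levels were 480, 307 and 378 CPM in MEF, 91.8, 70.0 and 69.4 CPM at Stage1, 62.0, 94.6 and 96.2 CPM at Stage2 and 86.1, 90.0 and 117 CPM in iPSC. The 3 MEF libraries stood apart from the other 9, which overlapped across Stage1, Stage2 and iPSC. Stage1 against MEF gave -2.51 ± 0.19 (adjusted p = 9.78e-10). Neither Stage2 against Stage1 (-0.07, 95% interval -0.45 to 0.30) nor iPSC against Stage2 (0.31, -0.07 to 0.69) was called. Between iPSC and MEF Mbnl2 was 4.82-fold lower, with a log2 fold change of -2.27 ± 0.19.

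Mbnl3, an X-linked paralog known for holding back muscle differentiation, was called later than the other members. It lies between 51117269 and 51206532 on the minus strand of chromosome X. It had 17.6, 14.3 and 9.68 CPM in MEF, 17.4, 18.9 and 18.97 CPM at Stage1, 5.18, 4.93 and 5.62 CPM at Stage2 and 4.27, 8.81 and 7.46 CPM in iPSC. Stage1 overlapped MEF, and all Stage2 and iPSC libraries lay below all MEF and Stage1 libraries. Stage1 against MEF was not called (0.24, 95% interval -0.30 to 0.79). Mbnl3 fell at Stage2 against Stage1 by 2.02 ± 0.28 on the log2 scale (adjusted p = 2.28e-05), a 4.04-fold lower level, and iPSC against MEF gave -1.28 ± 0.27 (adjusted p = 0.000303). Xist, the RNA that coats an inactive X chromosome, was at 203, 0.220 and 0 CPM in MEF, 3.20, 36.6 and 50.7 CPM at Stage1, 3.46, 8.10 and 10.6 CPM at Stage2 and 4.71, 5.68 and 4.73 CPM in iPSC, and its part in the Mbnl3 values was not tested. Ddx3y, a gene on the Y chromosome, had 6 counts in MEF replicate 1 against 1896 and 2112 counts in MEF replicates 2 and 3, and between 1301 and 3655 counts in each later library. MEF replicate 1 thus stands apart from the other 11 libraries in both genes. By these genes it reads as female and MEF replicates 2 and 3 read as male, so the MEF libraries differ in sex. Without MEF replicate 1, Mbnl3 in iPSC against MEF was -1.15 (adjusted p = 0.00133).

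The summed Mbnl level was 613 ± 119 CPM in MEF, 168 ± 18.9 CPM at Stage1, 125 ± 17.7 CPM at Stage2 and 128 ± 16.1 CPM in iPSC (SD, n = 3 each). The make-up of the sum also differed. Mbnl1 counts were 0.540 times those of Mbnl2 in MEF, 0.952 times at Stage1, 0.429 times at Stage2 and 0.240 times in iPSC. In each iPSC library this ratio, between 0.183 and 0.276, was below that of every Stage1, Stage2 and MEF library. Mbnl2 counts were 28.3 times those of Mbnl3 in MEF, 4.14 times at Stage1, 15.7 times at Stage2 and 14.7 times in iPSC. Stage1 was thus the group in which Mbnl2 was nearest in count to each of its paralogs.

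Rbfox2, which binds UGCAUG beside exons and is known for exon choices in both embryonic stem cells and mesenchymal cells, was lower in every later group than in MEF. The gene lies on chromosome 15 (77078990 to 77307004, minus strand). Rbfox2 had 303, 250 and 306 CPM in MEF, 155, 144 and 151 CPM at Stage1, 149, 152 and 177 CPM at Stage2 and 126, 136 and 148 CPM in iPSC. The 3 MEF libraries lay above the other 9, which overlapped apart from Stage2 and iPSC. Stage1 against MEF gave -1.11 ± 0.12 (adjusted p = 1.59e-07) and iPSC against MEF gave -1.35 ± 0.12, a 2.55-fold lower level. The later steps were small and not called, at -0.12 (95% interval -0.37 to 0.13) for Stage2 against Stage1 and -0.12 (-0.37 to 0.13) for iPSC against Stage2. Its paralogs were much lower. Rbfox1 averaged 3.23 ± 2.05 CPM in MEF and under 1 CPM in the later groups, and the neuronal Rbfox3 had no count in MEF and averaged 0.219 CPM at Stage1, 0.926 CPM at Stage2 and 0.946 CPM in iPSC.

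In the Ptbp pair Ptbp2 rose in every later group against MEF, while the repressor Ptbp1 was called against MEF at Stage2 alone. Ptbp1 lies on chromosome 10 (79854427 to 79864771, plus strand). It had 245, 226 and 394 CPM in MEF, 359, 328 and 298 CPM at Stage1, 264, 241 and 244 CPM at Stage2 and 311, 284 and 280 CPM in iPSC. The MEF libraries spanned the whole range of the other groups, with replicate 3 far above replicates 1 and 2. Stage1 against MEF was 0.01 (95% interval -0.34 to 0.36, adjusted p = 0.951), and 0.30 with an adjusted p of 0.0275 without MEF replicate 3. Between iPSC and MEF the value was -0.27 (-0.61 to 0.08, adjusted p = 0.148), but -0.42 without MEF replicate 1 and -0.41 without replicate 2, both called, and 0.02 without replicate 3. Without MEF replicate 3, iPSC against Stage2 (adjusted p = 0.0314) and iPSC against Stage1 (adjusted p = 0.0394) were called as well. Ptbp1 fell at Stage2 against Stage1 by 0.60 ± 0.17 on the log2 scale (adjusted p = 0.00847) and was 1.502-fold lower at Stage2 than in MEF (-0.59 ± 0.17, adjusted p = 0.00368). Without MEF replicate 3 Stage2 against MEF was -0.30 (adjusted p = 0.0248). With library totals in place of TMM factors these became -0.40 (adjusted p = 0.0761) and -0.21 (adjusted p = 0.268), so neither call holds under that scaling.

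Ptbp2, known from neural progenitors and maturing neurons, lies on chromosome 3 (119718742 to 119784466, minus strand). It had 32.5, 16.5 and 19.8 CPM in MEF, 90.2, 70.9 and 87.6 CPM at Stage1, 88.7, 101 and 101 CPM at Stage2 and 74.6, 80.6 and 67.4 CPM in iPSC. All 9 later libraries lay above all MEF libraries and overlapped among themselves apart from Stage2 and iPSC, which did not. Stage1 against MEF gave 1.70 ± 0.19 (adjusted p = 1.87e-07), a 3.25-fold higher level, and iPSC against MEF gave 1.44 ± 0.19 (adjusted p = 1.48e-06). Stage2 against Stage1 (0.02, 95% interval -0.36 to 0.40) and iPSC against Stage2 (-0.28, -0.66 to 0.10) were not called.

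The balance of the pair does not depend on how libraries are scaled, since it is a ratio of counts within a library. In MEF, Ptbp1 counts were 7.52, 13.7 and 19.9 times those of Ptbp2. The ratio was 3.98, 4.62 and 3.40 at Stage1, 2.97, 2.40 and 2.41 at Stage2 and 4.16, 3.52 and 4.15 in iPSC. All later libraries lay below all MEF libraries, and the Stage2 libraries lay below those of Stage1 and iPSC. The summed CPM of 8 neuron markers was 73.3 to 103 in MEF, 111 to 129 at Stage1, 243 to 291 at Stage2 and 294 to 354 in iPSC, and its part in the Ptbp2 values was not tested. In the later groups that sum is mostly Stmn2. It averaged 32.7 CPM in MEF, 91.5 CPM at Stage1, 219 CPM at Stage2 and 289 CPM in iPSC. Map2 averaged 29.8, 20.9, 11.75 and 12.7 CPM in the same order and Tubb3 21.95, 5.03, 23.6 and 18.9 CPM, so neither had the order of the sum. Under 1 CPM were 5 of the 8 markers in MEF, 5 at Stage1, 3 at Stage2 and 4 in iPSC. The third paralog, Ptbp3, averaged 229 ± 48.6 CPM in MEF, 227 ± 9.09 CPM at Stage1, 280 ± 26.7 CPM at Stage2 and 178 ± 13.5 CPM in iPSC, and it fell at iPSC against Stage2 (-0.55 ± 0.14, adjusted p = 0.0107). The exons of Ptbp1 overlap 3 genes on the other strand, by 251 bases with Plppr3 among them.

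**Figure D2:**
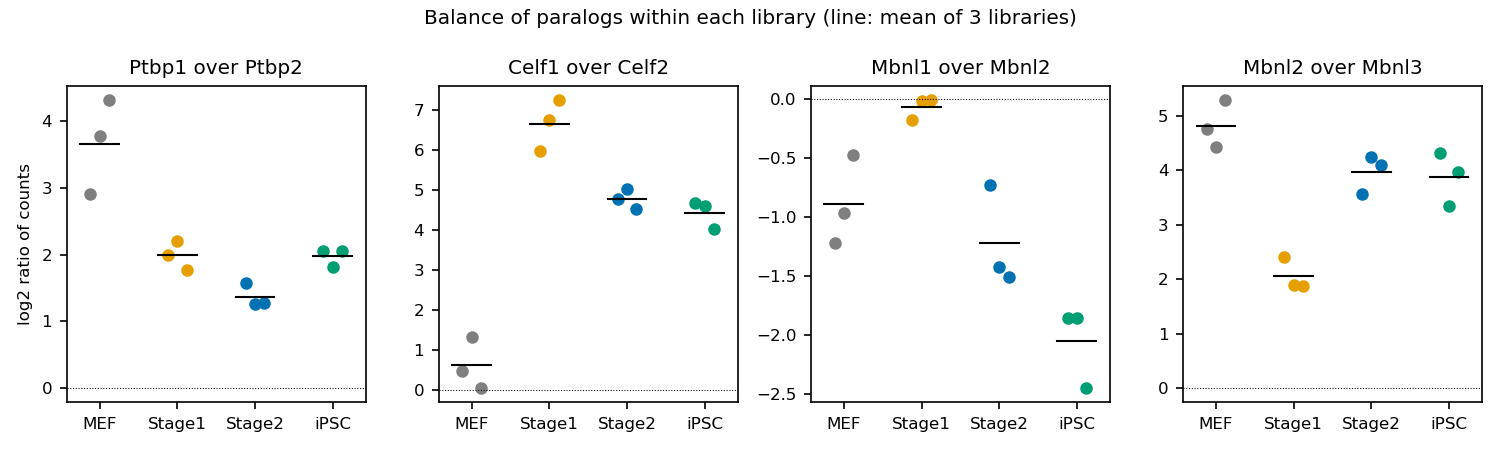
Log2 ratio of counts of paralogs within each library (vertical axis) for MEF, Stage1, Stage2 and iPSC, one point a library, with a line at the mean of 3 libraries and a dotted line at equal counts. Ptbp1 over Ptbp2 is highest in MEF, Celf1 over Celf2 is lowest in MEF and highest at Stage1, and Mbnl1 over Mbnl2 is lowest in iPSC.

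The Celf pair moved apart. Celf1, which binds GU-rich RNA and acts in mRNA decay as well as splicing, lies on chromosome 2 (90940382 to 91019497, plus strand). It had 101, 87.6 and 79.6 CPM in MEF, 233, 224 and 227 CPM at Stage1, 239, 206 and 205 CPM at Stage2 and 148, 168 and 154 CPM in iPSC. All Stage1 and Stage2 libraries lay above all iPSC libraries, and these lay above all MEF libraries. Celf1 rose at Stage1 against MEF by 1.18 ± 0.13 on the log2 scale (adjusted p = 1.69e-07), 2.26-fold. It was lower in iPSC than at Stage1 (-0.64 ± 0.13, adjusted p = 0.000655) and still higher in iPSC than in MEF (0.53 ± 0.13, adjusted p = 0.000993). Stage2 against Stage1 was not called (-0.28, adjusted p = 0.0893), but was without MEF replicate 3 (adjusted p = 0.0439). Nor was iPSC against Stage2, at -0.37 with an adjusted p of 0.0545, and that comparison was called in 6 of 8 other settings and in each of the 3 fits without a MEF library.

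Celf2, known from heart, brain and T cells, lies on the same chromosome (6539694 to 7509563, minus strand). It had 72.2, 34.9 and 77.2 CPM in MEF, 3.68, 2.06 and 1.47 CPM at Stage1, 8.75, 6.36 and 8.94 CPM at Stage2 and 5.78, 6.89 and 9.46 CPM in iPSC. Stage1 was lowest without overlap, MEF highest without overlap, and Stage2 and iPSC overlapped. The log2 fold change of Stage1 against MEF was -4.82 ± 0.34 (adjusted p = 4.54e-10), a 28.3-fold lower level, and the 3 Stage1 libraries held 95 counts in all. Celf2 rose again at Stage2 against Stage1 by 1.51 ± 0.34 (adjusted p = 0.0018), 2.85-fold, and at -3.33 ± 0.31 it was still lower in iPSC than in MEF. Summed CPM of 8 muscle markers was 208 to 278 in MEF, 10.5 to 11.5 at Stage1, 22.9 to 29.4 at Stage2 and 38.9 to 52.6 in iPSC, with the defining genes Myod1, Ckm and Actn2 at 0 in MEF. In MEF 5 of the 8 muscle markers were under 1 CPM. Of the 5 tested, 2 were called higher and 3 lower at Stage1 against MEF, beside 44.2% and 36.1% of all genes, so they did not all follow the sum. Summed CPM of 8 macrophage and blood markers was 98.1 to 102 in MEF, 9.20 to 15.9 at Stage1, 28.5 to 35.8 at Stage2 and 13.6 to 19.4 in iPSC, and the part of either list in the Celf2 values was not tested. At Stage2, 7 of these 8 were under 1 CPM and nearly all of the sum was Cd68, at 28.2 CPM, whereas Lyz2, at 67.6 CPM, made up most of it in MEF. Exons of Celf2 overlap a noncoding RNA on the other strand.

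Celf1 counts were 1.39, 2.51 and 1.03 times those of Celf2 in MEF. At Stage1 they were 62.8, 107 and 150 times, at Stage2 27.1, 32.2 and 22.8 times, and in iPSC 25.4, 24.3 and 16.3 times. The summed level of the pair was 151 ± 25.8 CPM in MEF, 230 ± 5.86 CPM at Stage1, 224 ± 20.1 CPM at Stage2 and 164 ± 10.8 CPM in iPSC. Of the other paralogs, Celf4 averaged 9.46 ± 2.31 CPM in MEF, 6.92 ± 1.60 CPM at Stage1, 15.0 ± 1.38 CPM at Stage2 and 17.97 ± 0.886 CPM in iPSC. Celf5 averaged 0.581 ± 0.270 CPM in MEF, 2.93 ± 0.680 CPM at Stage1, 16.1 ± 1.87 CPM at Stage2 and 10.9 ± 1.29 CPM in iPSC, and it rose at Stage2 against Stage1 (2.25 ± 0.28, adjusted p = 8.55e-06). Celf3 and Celf6 had under 1 CPM on average in every group and were too low to test.

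Over the 10 regulators, Stage1 against MEF called 3 higher (Esrp1, Ptbp2 and Celf1) and 4 lower (Mbnl1, Mbnl2, Rbfox2 and Celf2). In that comparison 44.2% of all genes tested were called higher and 36.1% lower, so the counts stand near the background. Their median log2 fold change was 0.09, beside 0.27 over all genes tested. In Stage2 against Stage1, 1 was called higher (Celf2) and 3 lower (Mbnl1, Mbnl3 and Ptbp1), with a background of 20.6% higher and 19.8% lower and medians of -0.20 over the 10 and 0.02 over all genes. In iPSC against Stage2, 2 were called lower (Esrp1 and Mbnl1) and 8 were not called, with 9.21% higher and 8.87% lower as the background shares. The medians there were -0.07 and 0.04.

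Of the comparisons that span more than a step, Stage2 against MEF called 3 higher and 6 lower (background 44.6% and 36.4%). The median there was -0.91 over the 10 and 0.25 over all genes. In iPSC against Stage1, 1 was higher (Celf2) and 4 were lower (Esrp1, Mbnl1, Mbnl3 and Celf1), beside 21.3% and 18.1%. In iPSC against MEF, 3 were higher (Esrp1, Ptbp2 and Celf1) and 5 lower (the Mbnl genes, Rbfox2 and Celf2), beside 44.9% and 35.8%, with medians of -0.77 and 0.29. Comparisons that share a group share its libraries and are not independent of each other.

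**Figure D3:**
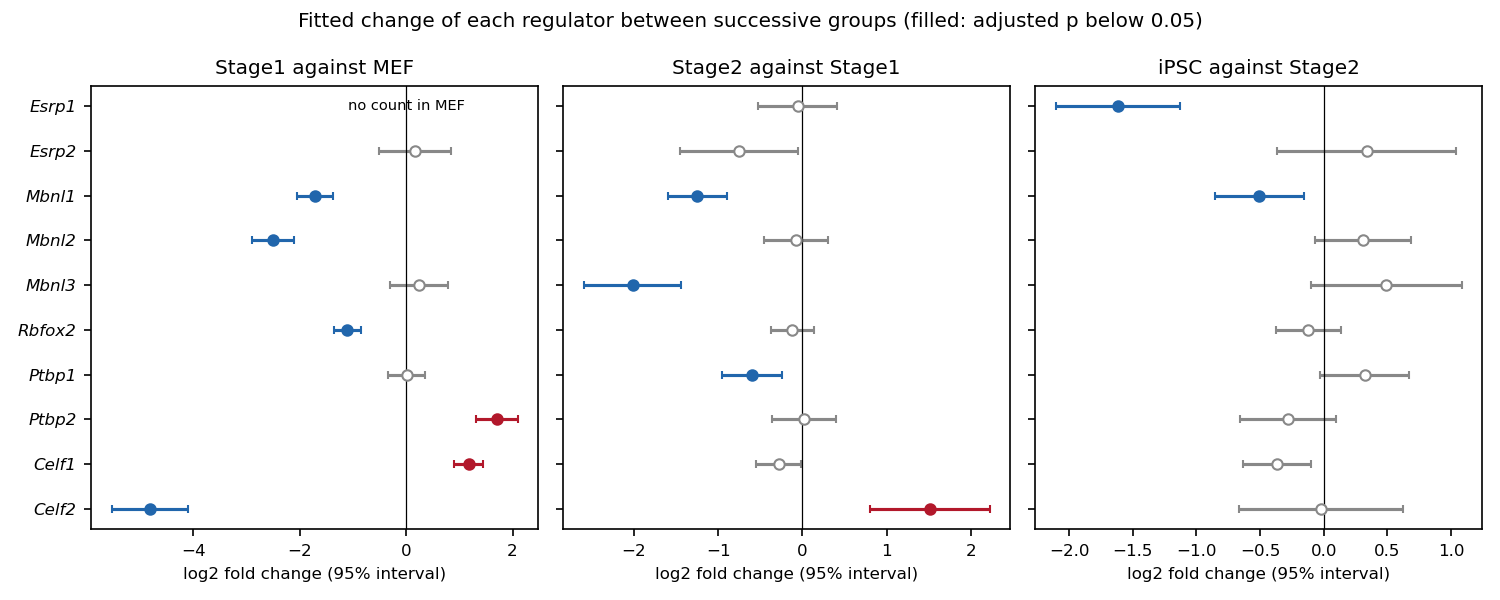
Log2 fold change with 95% interval (horizontal axis, scaled per panel) of each regulator for the 3 successive steps as titled, filled where the adjusted p is below 0.05. Mbnl1 is the only regulator called in all 3 steps, Celf2 lies at -4.82 in the left panel and at 1.51 in the middle one, and Esrp1 has no count in MEF and is not drawn there.

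Levels of different genes can be set side by side only per length. Per kilobase of RefSeq exon, Ptbp1 was the highest of the 10 in Stage1, Stage2 and iPSC, at 95.2, 72.4 and 84.5 CPM per kilobase as means of 3 libraries, and it was also the highest there per kilobase of all GENCODE exons merged. The order of the others depended on which length was used. In MEF, RefSeq lengths gave 84.6 for Mbnl2, 83.6 for Ptbp1, 39.6 for Rbfox2 and 36.4 for Mbnl1. Merged GENCODE exons gave 60.8 for Ptbp1, 35.2 for Rbfox2, 32.4 for Mbnl2 and 11.3 for Mbnl1. Below these in MEF, on RefSeq lengths, came Celf1 at 11.2, Celf2 at 6.50, Ptbp2 at 6.07, Mbnl3 at 2.74 and Esrp2 at 1.03 CPM per kilobase. In iPSC the order after Ptbp1 on RefSeq lengths was Mbnl2 at 21.3, Celf1 at 19.7, Ptbp2 at 19.6 and Rbfox2 at 18.9. On merged exons it was Celf1 at 18.55, Rbfox2 at 16.8, Mbnl2 at 8.135 and Ptbp2 at 8.09. The lower levels in iPSC, on RefSeq lengths, were Mbnl1 at 4.00, Esrp1 at 3.98, Mbnl3 at 1.35, Esrp2 at 1.06 and Celf2 at 0.780 CPM per kilobase. Celf2 was the lowest of all 10 in iPSC, at Stage1 and at Stage2 on either length. On RefSeq lengths it was at 0.254 CPM per kilobase at Stage1, and at 0.848 at Stage2, close to Esrp2 at 0.892. The exon length that applies depends on the transcripts present, which gene counts do not show.

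**Figure D4:**
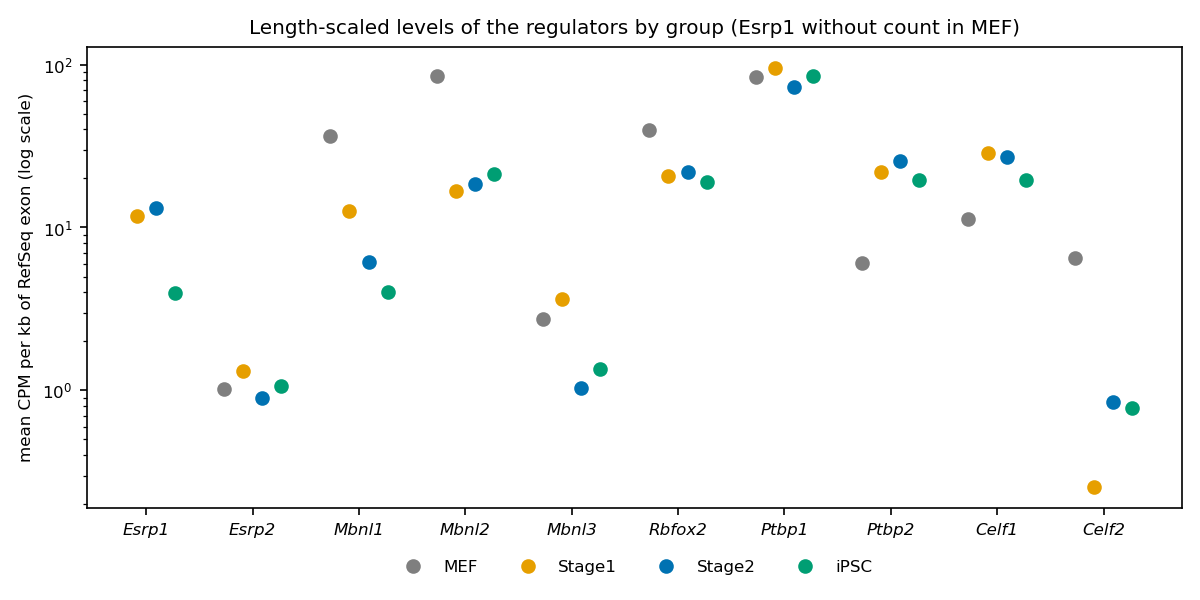
Mean CPM per kilobase of RefSeq exon (vertical axis, log scale) of each regulator in MEF, Stage1, Stage2 and iPSC, 1 point a group. Ptbp1 stays between 72.4 and 95.2, Mbnl2 is at 84.6 in MEF and between 16.8 and 21.3 in the other groups, and Esrp1 has no count and no point in MEF.

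Likeness of patterns was described with Pearson's r of log2 CPM over the 12 libraries, which fall into MEF and the rest, so a high r needs little more than a shared difference from MEF. Among the 10, Esrp1 was most like Ptbp2 (r = 0.956) and least like Mbnl2 (r = -0.970). Mbnl2 and Rbfox2 were most like each other (r = 0.957), Mbnl1 was most like Rbfox2 (r = 0.927) and Celf2 most like Mbnl2 (r = 0.918). Celf1 was most like Esrp1 (r = 0.914), and Celf1 and Celf2 ran against each other (r = -0.907). Mbnl3, Esrp2 and Ptbp1 stood apart, with no r above 0.722 to any other of the 10.

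Over all genes tested, the pattern most like that of Esrp1 was Zbtb44 (r = 0.997), followed by Pou2f1 and Suz12. Mbnl2 was most like Wwtr1 (r = 0.991), Celf2 most like Rhobtb3 (r = 0.991) with Cdh2 also among its closest (r = 0.988), Celf1 most like Snrpd3 (r = 0.990) and Mbnl3 most like Gmfb (r = 0.968). Patterns with r over 0.9 were found for 2658 genes with Esrp1, 2125 with Mbnl2, 2101 with Rbfox2 and 1901 with Ptbp2. Only 33 genes passed that value with Mbnl3, 7 with Ptbp1 and none with Esrp2, the regulators that did not follow the split between MEF and the rest.

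The general splicing machinery was counted in the same way. At Stage1 against MEF, 44.2% of all genes tested were called higher and 36.1% lower. Of 22 SR and SR-related proteins and their kinases, which bind exonic enhancers or phosphorylate proteins that do, 21 rose and 1 fell at Stage1 against MEF, with a median log2 fold change of 1.71. Srsf7 (2.18 ± 0.16, adjusted p = 9.75e-10) and Srsf1 (2.12 ± 0.16, adjusted p = 1.74e-09) rose, while the kinase Clk3 fell (-0.50 ± 0.16, adjusted p = 0.0096). Of 22 hnRNP proteins 19 rose and 1 fell, with a median of 1.88, and of 37 core spliceosome genes 30 rose and 3 fell, with a median of 1.92. U2af1, the subunit that reads the end of the intron, rose by 3.604 ± 0.23 (adjusted p = 1.44e-10) and Snrpf, an Sm ring protein, by 3.47 ± 0.17 (adjusted p = 4.12e-12), while Sf3a2 fell by 1.59 ± 0.27 (adjusted p = 3.84e-05). Members of the hnRNP and Sm families have processed pseudogene copies, and the sources used here do not say how reads were split between copies, so single values of these genes are uncertain.

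At Stage2 against Stage1 the direction turned. Over all genes tested, 20.6% were called higher and 19.8% lower there. Core spliceosome genes fell in 26 of 37 cases and the other 11 were not called, with a median of -0.52 beside 0.02 over all genes, and examples were Snrpg (-1.27 ± 0.25, adjusted p = 0.000854) and Prpf31 (-1.22 ± 0.15, adjusted p = 8.19e-06). With library totals, which raised the median of all genes by 0.20, 15 fell and 1 rose, and the list median was -0.32. SR genes fell in 11 cases and rose in 2, but in 5 and 5 cases with library totals. Among them Srsf2 fell (-1.02 ± 0.15, adjusted p = 5.49e-05) and the kinase Clk1 rose (1.04 ± 0.15, adjusted p = 4.2e-05). hnRNP genes fell in 11 cases and rose in 1, in 8 and 2 cases with RLE scaling and in 5 and 3 cases with library totals. In iPSC against Stage2, 9.21% of all genes tested were called higher and 8.87% lower. There 8 of 22 hnRNP genes fell and 14 were not called. Those that fell included Pcbp1 (-1.24 ± 0.19, adjusted p = 0.000497) and Hnrnpd (-1.17 ± 0.19, adjusted p = 0.000712). Of core spliceosome genes 7 rose and 2 fell, against 4 and 2 with library totals.

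**Figure D5:**
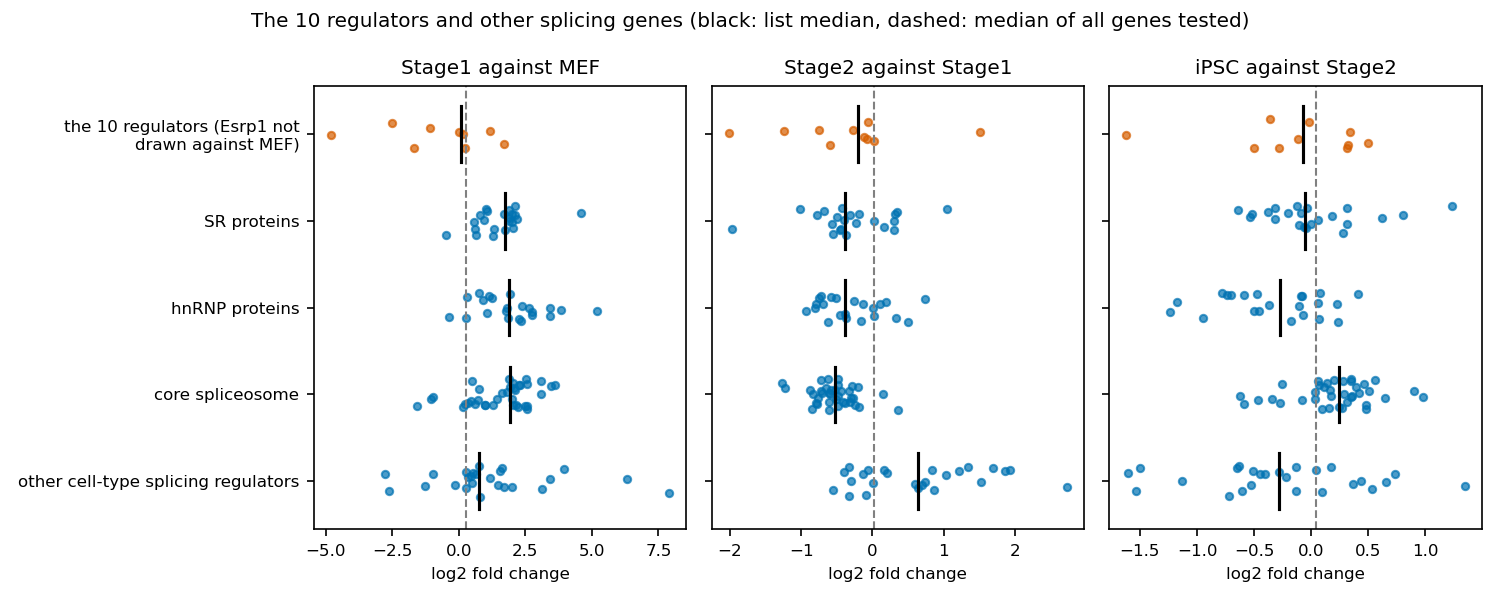
Log2 fold change (horizontal axis, scaled per panel) of the 10 regulators and of 4 other groups of splicing genes, 1 point a gene, for the 3 successive steps as titled, with a black line at each list's median and a dashed line at the median of all genes tested. The medians of SR, hnRNP and core spliceosome genes lie between 1.71 and 1.92 in the left panel, where that of the 10 regulators is 0.09. Elavl3, with no count in MEF, is drawn there at its fitted value, which is no bound.

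Other regulators of cell-type splicing, 25 tested of 26, included further changes. The shares of all genes tested that were called higher and lower were 44.2% and 36.1% at Stage1 against MEF. They were 20.6% and 19.8% at Stage2 against Stage1, and 9.21% and 8.87% in iPSC against Stage2. At Stage1 against MEF 15 rose and 4 fell. The neuronal Elavl2 rose by 6.31 ± 0.52 (adjusted p = 5.52e-09) and Rbm47, known from epithelium, by 3.96 ± 0.27 (adjusted p = 3.24e-10), while Khdrbs3 fell by 2.63 ± 0.19 (adjusted p = 5.17e-10). At Stage2 against Stage1 7 rose and 2 fell, against 9 and 1 with RLE scaling and 11 and 0 with library totals. Elavl3, a further neuronal member, rose by 2.73 ± 0.26 (adjusted p = 1.01e-06), Khdrbs3 rose by 1.93 ± 0.19 (adjusted p = 5.06e-07), and Qk, which promotes mesenchymal and glial exon choices, fell by 0.55 ± 0.13 (adjusted p = 0.00217). In iPSC against Stage2 3 rose and 6 fell, against 1 and 7 with RLE scaling and 0 and 7 with library totals. Rbm47 fell by 1.501 ± 0.22 (adjusted p = 0.000291), the same direction as Esrp1.

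Upstream of the Esrp genes, Zeb1 and Zeb2 are known repressors of Esrp1 in epithelial cells, and Grhl2 and Ovol2 are known epithelial activators or Zeb repressors. Zeb1 averaged 67.2 ± 16.5 CPM in MEF, 9.60 ± 0.670 CPM at Stage1, 32.2 ± 0.921 CPM at Stage2 and 24.3 ± 1.81 CPM in iPSC, and it rose at Stage2 against Stage1 (1.54 ± 0.18, adjusted p = 4.25e-06). In that same comparison Esrp1 was not called, and the part of these regulators in the Esrp1 values was not tested. Zeb2 averaged 139 ± 23.7 CPM in MEF, 7.06 ± 5.44 CPM at Stage1, 9.62 ± 1.94 CPM at Stage2 and 9.02 ± 2.51 CPM in iPSC. Grhl2 had no count in MEF and averaged 10.4 ± 2.43 CPM at Stage1, 21.0 ± 2.92 CPM at Stage2 and 10.3 ± 2.39 CPM in iPSC, and it fell at iPSC against Stage2 (-0.91 ± 0.26, adjusted p = 0.0245), as did the Kruppel-like factor Klf5 (-1.86 ± 0.32, adjusted p = 0.00134). Of the 11 regulators of epithelial identity tested, 5 rose and 6 fell at Stage1 against MEF, beside 44.2% and 36.1% of all genes. At Stage2 against Stage1 6 rose and 5 were not called, beside 20.6% higher and 19.8% lower. In iPSC against Stage2 3 fell and 8 were not called, beside 9.21% higher and 8.87% lower.

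Genes that hold exons known to be controlled by these proteins changed in total RNA in either direction, which says nothing of the exons themselves. Of 14 genes with Esrp-controlled exons, 5 rose and 6 fell at Stage1 against MEF. Over all genes tested 44.2% were called higher and 36.1% lower, so these counts stand near the background. The adhesion receptor Cd44 fell by 6.66 ± 0.23 (adjusted p = 4.57e-14), with 9.33 ± 2.13 CPM at Stage1 and 838 ± 135 CPM in MEF, and the cytokine Csf1 fell by 7.29 ± 0.24 (adjusted p = 2.86e-14), while the kinase Slk rose by 2.18 ± 0.15 (adjusted p = 2.69e-10). At Stage2 against Stage1 5 of the 14 rose and 3 fell, beside 20.6% higher and 19.8% lower over all genes tested. Fgfr2, whose receptor forms are the classic Esrp readout, fell in that comparison by 2.34 ± 0.39 (adjusted p = 0.000174), and Fgfr3 rose by 4.26 ± 0.56 (adjusted p = 1.56e-05). Fgfr3 had only 14 counts over the 3 Stage1 libraries, a mean of 0.338 ± 0.371 CPM, so the size of its rise is uncertain. In iPSC against Stage2 4 fell and 10 were not called, beside 8.87% lower over all genes tested. Ctnnd1, which encodes a catenin, was among those that fell (-1.08 ± 0.18, adjusted p = 0.00109).

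Of 14 neuronal genes with Ptbp-controlled exons, 5 rose and 6 fell at Stage1 against MEF, near the background of 44.2% higher and 36.1% lower. Among them were Gabbr1, a GABA receptor subunit (2.61 ± 0.15, adjusted p = 2.66e-11), and Dlg4, which encodes a synaptic scaffold (-5.87 ± 0.23, adjusted p = 2.23e-13). At Stage2 against Stage1 9 rose and 1 fell, beside 20.6% higher and 19.8% lower over all genes tested. The median was 1.38, beside 0.02 over all genes. Part of the list averaged under 5 CPM in both groups, such as Dlg4, at 1.28 ± 0.386 CPM at Stage1 and 3.98 ± 0.240 CPM at Stage2. Grin1, a glutamate receptor subunit, rose by 3.16 ± 0.32 (adjusted p = 9.9e-07), with 45.7 ± 3.68 CPM at Stage2 and 4.43 ± 1.16 CPM at Stage1, and it fell in iPSC against Stage2 by 1.41 ± 0.29 (adjusted p = 0.00396). The gene that fell at Stage2 against Stage1 was Clta, a clathrin light chain (-0.91 ± 0.13, adjusted p = 3.74e-05).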

How the data were processed

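RNA extracted with a miRNeasy Mini kit was sequenced as Illumina libraries, per the labels' protocols. The deposited values are raw counts of reads per gene symbol, made by the authors with TopHat2 2.0.9, Bowtie2 2.2.6, SAMtools 0.1.19 and HTSeq 0.5.4p3 on mm10, per the submitters' processing notes, which also name DESeq2 1.12.4. For the annotation version and the strand setting, nothing was stated in the labels or notes. HTSeq's summary lines stayed out of totals and tests. The share of reads that fell outside genes was 9.21% in MEF, 42.8% at Stage1, 49.9% at Stage2 and 38.8% in iPSC, and structural RNA made up 7.69% of gene counts in MEF and 1.21% to 1.71% in the other groups. Of 23420 genes, 804 had no count in any library.

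All 12 libraries entered 1 fit by edgeR 4.0.16 (limma 3.58.1, statmod 1.5.0, R 4.3.3) with filterByExpr by group, TMM and robust quasi-likelihood, which tested 14770 genes, all 10 regulators among them, at a common biological coefficient of variation of 0.190. Each SE is the size of the log2 fold change divided by the root of its F statistic. CPM of single libraries, and means ± SD of CPM, use gene totals without TMM, and log2 CPM for likeness used a prior count of 2. Ratios of paralogs added 0.5 to each count, in single libraries as well as for the group means. Gene positions are from GENCODE on GRCm38, the same build as mm10, and promoters from RefSeq. The steps were tested on simulated data in which few genes changed, as many up as down. That does not test the scaling where most genes are called, as in the comparisons with MEF.

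The regulators, the 8 lists of splicing, target and epithelial genes and the 6 marker lists were chosen with earlier results of these data known. All 202 genes listed were in the files. Named genes are the regulators, their paralogs, the Zeb, Snai, Ovol and Grhl2 genes, markers, the 3 patterns most like each regulator, and up to 2 called genes per list, direction and step with the largest change and at least 5 CPM in the higher group. The ratio of Mbnl1 to Mbnl2, Xist and Ddx3y were chosen after their values were seen. Other settings were RLE scaling, library totals, structural RNA left out, other filters, DESeq2 1.42.0, a separate fit for each pair of groups, the replicate number as a block, a pseudocount of 1 in the ratios, and leaving out each library in turn.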

Additional observations from a re-analysis of the deposited data

How the results depend on the processing

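Over the 8 other settings, 458 of 480 fitted changes kept their direction and their side of the threshold, and of 720 that left out a library 685 did. In these fits 0 of the called values changed sign. The count of regulators called in iPSC against Stage2 was 2, with 2670 of all 14770 genes tested called. In a fit of only those groups it was 5 (4954 of 13733 genes called), and with the replicate block 1 (2425 of 14770). With a library left out it was 1 to 4. It was 4 without MEF replicate 3 (3781 of 15220 genes called). When a library of Stage1, Stage2 or iPSC was left out it was 1, with 1233 to 2654 genes called. The calls over all genes thus also moved with the setting, and the cause was not tested. The replicate numbers were not taken as pairs. With them as a block in edgeR's fit, Mbnl1 was not called in iPSC against Stage2 (adjusted p = 0.0603). Of 18 same-numbered pairs, 3 had a correlation of deviations above 0.1. The 18 include 9 pairs with MEF, so that count does not settle pairing among the later groups. As a hint from the data, the 9 same-numbered pairs among Stage1, Stage2 and iPSC were all positive (0.011 to 0.197). Pairs of other numbers reached 0.083 at most, and same-numbered pairs with MEF went both ways (-0.068 to 0.050). With library totals, Esrp1 (0.15), Mbnl2 (0.13) and Rbfox2 (0.0868) turned sign in Stage2 against Stage1, and Esrp2 (0.0370) and Ptbp1 (0.0159) in iPSC against MEF. Esrp1 in Stage2 against Stage1 was 0.00556 with RLE scaling and 0.00464 with DESeq2, Ptbp1 in Stage1 against MEF was -0.0492 with only those groups, and Celf2 in iPSC against Stage2 was 0.00387 with the replicate block. Leaving out libraries gave -0.0196 to 0.28 for Esrp2 in Stage1 against MEF, -0.13 to 0.30 for Ptbp1 in Stage1 against MEF, -0.17 to 0.00114 for Esrp1 in Stage2 against Stage1, -0.18 to 0.0795 for Mbnl2 in Stage2 against Stage1, -0.0751 to 0.0523 for Ptbp2 in Stage2 against Stage1, -0.21 to 0.15 for Celf2 in iPSC against Stage2 and -0.42 to 0.0228 for Ptbp1 in iPSC against MEF. Depth limits Esrp2 and, at Stage1, Celf2, where 95 counts in 3 libraries carry the value.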

Other observations

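Among regulators that the comparisons above do not describe in full, the neuronal Elavl3 had no count in MEF and averaged 2.27 ± 0.494 CPM at Stage1, 17.4 ± 1.87 CPM at Stage2 and 26.9 ± 4.20 CPM in iPSC (SD, n = 3 each), so it was higher in each successive group. Rbm47 averaged 1.10 ± 0.315 CPM in MEF, 19.1 ± 3.93 CPM at Stage1, 36.9 ± 3.98 CPM at Stage2 and 12.2 ± 0.610 CPM in iPSC. Fgfr2 averaged 10.8 ± 7.94 CPM in MEF, where libraries ranged between 4.73 and 19.8 CPM, and 20.7 ± 3.04 CPM at Stage1, 4.70 ± 0.610 CPM at Stage2 and 7.86 ± 2.24 CPM in iPSC. Twist2, a mesenchymal transcription factor, fell at Stage1 against MEF by 8.80 ± 0.32 on the log2 scale (adjusted p = 9.52e-14 in edgeR's quasi-likelihood test). Snai1, a repressor of epithelial genes, averaged 0.0503 ± 0.0440 CPM at Stage1 and 13.4 ± 5.37 CPM in MEF.

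In iPSC against Stage2, Clk4 rose by 0.80 ± 0.14 (adjusted p = 0.00141) and Clk1 by 0.62 ± 0.15 (adjusted p = 0.0101), while the SR-related Srrm1 fell by 0.64 ± 0.14 (adjusted p = 0.00583) and Srrm2 by 0.54 ± 0.17 (adjusted p = 0.0337).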
